A study of Caenorhabditis elegans with 6 samples.

Results

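Seam cells are the lateral row of epidermal progenitors in the *Caenorhabditis elegans* larva, and the genes described here set their identity, their divisions and their fusion with neighbouring cells. The set comprised 10 genes chosen by name, out of 20191 protein-coding genes with expected counts: the GATA factors *elt-1*, *egl-18* and *elt-6*, the Runx and CBF-beta partners *rnt-1* and *bro-1*, the Hes-related repressor *lin-22*, the fusogens *eff-1* and *aff-1*, and the Wnt pathway components *pop-1* and *apr-1*. All 10 passed the filter on low counts.

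mRNA was sequenced from whole dauer larvae, the stress-resistant diapause stage, of *daf-16(0)*, which carried the null allele *daf-16(mgDf50)* together with *daf-7(e1372)*, and of the control, which carried *daf-7(e1372)* alone. *daf-16* encodes the FOXO transcription factor of the insulin pathway, and the temperature-sensitive *daf-7* allele, shared by both genotypes, makes larvae enter dauer. Embryos were kept for 52 h at 24 °C, and larvae were then picked by hand as dauers because part of the *daf-16(0)* population does not enter dauer, so the animals sequenced were a selected fraction. The labels and the study's methods give the *daf-16(0)* strain different names, VT2127 and VT2317, which was not settled. There were 3 libraries per genotype, although the methods describe 2 biological replicates each, so p-values measure the spread between these libraries.

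Seam cells behave as stem cells and divide at each larval stage. In their asymmetric divisions one daughter stays a seam cell and the other joins the surrounding hyp7 syncytium by cell fusion. Wnt/beta-catenin asymmetry signalling makes the daughters different, GATA and Runx factors keep the seam daughter in its state and dividing, and the fusogens EFF-1 and AFF-1 merge epidermal membranes. In dauer larvae that have *daf-16* the seam cells pause their divisions and remain multipotent. At adulthood seam cells exit the cell cycle, fuse with each other and secrete the adult alae. The study reports that seam cells of dauer larvae lacking *daf-16* did not stay quiescent but divided, and that they remained unfused. The part of these divisions in the mRNA levels given here was not tested.

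The protein-coding total was 8103772 to 17808548 counts per library. Levels are given as CPM, the count scaled to 1000000 protein-coding counts per library after TMM normalization, at which 3 counts correspond to 0.154 to 0.418 CPM. Each comparison was fitted on the 4 libraries that the authors used for their deposited comparison (*daf-16(0)* replicates 2 and 3 against control replicates 1 and 2) and again on all 6, and an adjusted p is that of edgeR's quasi-likelihood test after Benjamini-Hochberg adjustment over all tested genes. *daf-16* itself had 40.6, 63.3 and 43.3 CPM in the *daf-16(0)* libraries, against 393, 353 and 197 CPM in the control libraries, so the libraries labelled *daf-16(0)* were the low ones. Control replicate 3 stood apart from the other controls: the 6 yolk protein genes summed to 18306 CPM there and to 13797 to 25845 CPM in the *daf-16(0)* libraries, against 317 and 124 CPM in control replicates 1 and 2. Results are therefore given with and without that library. The 4-library fit also leaves out *daf-16(0)* replicate 1, so its differences from the 6-library fit cannot be assigned to control replicate 3 alone.

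The question was whether loss of *daf-16* changed the mRNA of seam genes in dauer larvae. Of the 10 genes, 2 fell in *daf-16(0)* in the 4-library fit, *apr-1* and *elt-1*, where 9.59% of all 13536 tested genes fell. In all 6 libraries 1 gene, *apr-1*, fell, where 7.39% of 13633 tested genes fell. None rose in either edgeR fit, at the adjusted threshold or at an unadjusted p of 0.05. At the adjusted threshold edgeR called 5.37% of all genes higher in 4 libraries and 5.08% in all 6. None rose at the adjusted threshold with DESeq2 (both sets of libraries) or limma (4 libraries). Over all genes, DESeq2 called 1645 of 17287 higher in 4 libraries and 1643 of 17496 in 6, and limma called 1350 of 13639 in 4. DESeq2 was run without the filter on low counts. Its shares of all genes, here and below, therefore include genes of very few counts and are not on the same base as those of edgeR and limma. The median log2 fold change of the 10 genes was -0.79 in 4 libraries, against 0.11 for all tested genes, and it was -0.92 in all 6, against 0.091.

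For 6 of the 10 genes (*elt-1*, *egl-18*, *elt-6*, *rnt-1*, *lin-22* and *apr-1*) every *daf-16(0)* library lay below every control library, whether 4 or 6 libraries were counted. Among all tested genes 32.7% showed that order in 4 libraries and 19.2% in 6. The opposite order, found for 37.4% of all genes in 4 libraries and 21.8% in 6, was shown by 0 of the 10. The genotypes overlapped for the remaining 4, *bro-1*, *eff-1*, *aff-1* and *pop-1*.

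**Figure D1:**
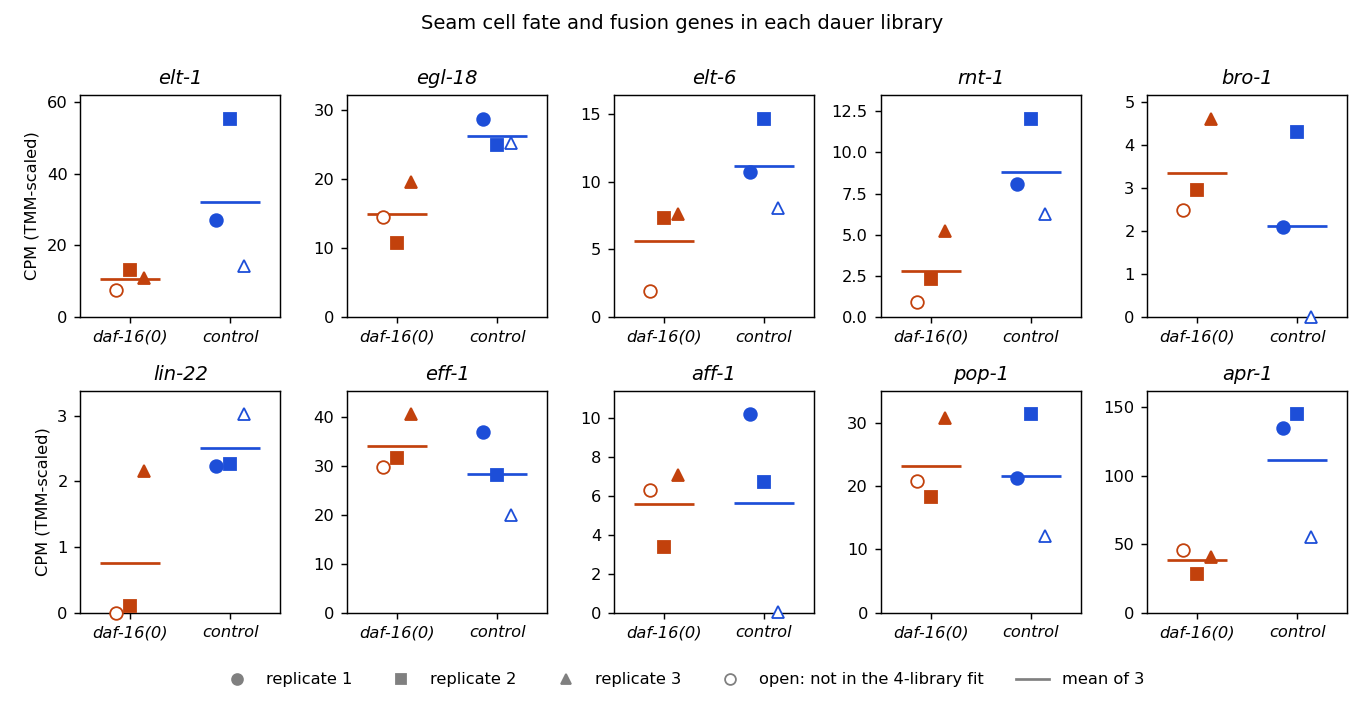
Level of each seam gene in CPM (y axis, linear, a separate scale for each gene) in the 3 *daf-16(0)* libraries (left) and the 3 control libraries (right), with symbols for the replicate number, open symbols for the libraries outside the 4-library fit, and a line at the mean of 3. The 6 genes without overlap between genotypes and the near-zero control replicate 3 values of *bro-1* and *aff-1* can be read from it.

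*elt-1* (WBGene00001249, WBcel235 chromosome IV 9614970-9620140, plus strand) encodes the GATA factor that specifies epidermal cells in the embryo and is later needed for seam cell identity. It had 7.64, 13.0 and 10.9 CPM in *daf-16(0)* replicates 1 to 3, against 27.1, 55.3 and 14.3 CPM in control replicates 1 to 3. The genotypes did not overlap, but control replicate 2 was far above the other controls and control replicate 3 was only just above the highest *daf-16(0)* library. In the 4 libraries *elt-1* averaged 12.0 ± 1.49 CPM in *daf-16(0)* and 41.2 ± 19.95 CPM in control (SD, n = 2 each). This was a log2 fold change of -1.78 (SE 0.46, 95% interval -2.89 to -0.68, adjusted p = 0.0485). In all 6 libraries the log2 fold change was -1.63 (SE 0.54) and did not pass the threshold (adjusted p = 0.0875).

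The *elt-1* call lay close to the threshold. From the 4 libraries it was lost when *daf-16(0)* replicate 2, *daf-16(0)* replicate 3 or control replicate 2 was left out. The log2 fold changes in these fits were -1.90, -1.64 and -1.18. Each of them left 1 library in a genotype, so a lost call there does not show that *elt-1* depended on the library left out. It was also lost when all gene biotypes were tested together (0.0537). The sign stayed negative in each of these edgeR fits.

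The neighbouring GATA genes *egl-18* (WBGene00001186, chromosome IV 1902323-1917841, plus strand) and *elt-6* (WBGene00001253, chromosome IV 1917854-1921644, plus strand) lie 12 bases apart and both promote seam fate in the daughter that receives the Wnt signal, keeping it from fusing with hyp7. *egl-18* had 14.6, 10.7 and 19.6 CPM in the *daf-16(0)* libraries, against 28.7, 24.97 and 25.2 CPM in the control libraries. The controls were tightly grouped and the *daf-16(0)* libraries were more spread, all of them lower. The log2 fold change was -0.82 (SE 0.43, 95% interval -1.85 to 0.21, adjusted p = 0.214) in 4 libraries and -0.83 (SE 0.37, adjusted p = 0.173) in 6, and neither passed the threshold.

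*elt-6* had 1.91, 7.34 and 7.62 CPM in the *daf-16(0)* libraries, against 10.7, 14.6 and 8.09 CPM in the control libraries. *daf-16(0)* replicate 1 was the lowest by a wide margin, and control replicate 3 was just above *daf-16(0)* replicate 3. The log2 fold change of -0.76 (SE 0.52, 95% interval -2.02 to 0.49, adjusted p = 0.325) in 4 libraries did not pass the threshold, nor did that of -1.01 (SE 0.67, adjusted p = 0.345) in 6.

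Per kilobase of exon, *egl-18* was above *elt-6* in every library. The *egl-18* to *elt-6* ratio of CPM per kb was 6.35, 1.22 and 2.15 in the *daf-16(0)* libraries, against 2.23, 1.42 and 2.60 in the control libraries. The ratios of the genotypes overlapped, and only *daf-16(0)* replicate 1 stood out, with 29 counts of *elt-6*.

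*rnt-1* (WBGene00004393, chromosome I 5776154-5788610, plus strand) encodes the Runx transcription factor, and *bro-1* (WBGene00000272, chromosome I 5186926-5188995, plus strand) its CBF-beta partner, which together promote seam cell proliferation. *rnt-1* had 0.922, 2.30 and 5.23 CPM in the *daf-16(0)* libraries, against 8.09, 12.0 and 6.24 CPM in the control libraries. All *daf-16(0)* libraries were lower, *daf-16(0)* replicate 3 coming close to control replicate 3. Its log2 fold change was -1.41 (SE 0.71, 95% interval -3.14 to 0.31, adjusted p = 0.203) in 4 libraries and -1.66 (SE 0.80, adjusted p = 0.208) in 6, and neither passed the threshold.

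*bro-1* had 2.50, 2.96 and 4.62 CPM in the *daf-16(0)* libraries, against 2.09, 4.31 and 0 CPM in the control libraries. The genotypes overlapped, and the Runx partner did not share the order seen for *rnt-1*. *bro-1* had a log2 fold change of 0.23 (SE 0.91, 95% interval -1.96 to 2.43, adjusted p = 0.873) in 4 libraries, an interval that spans large changes in either direction.

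*lin-22* (WBGene00003008, chromosome IV 3019738-3022315, plus strand) encodes a Hes-related bHLH repressor that keeps anterior seam lineages from making neuroblasts. It had 0, 1 and 28 counts in the *daf-16(0)* libraries, against 16, 20 and 59 counts in the control libraries. In CPM these were 0, 0.110 and 2.16 in *daf-16(0)*, against 2.23, 2.27 and 3.02 in control, and 0 counts in *daf-16(0)* replicate 1 allow a level of up to 0.198 CPM from counting error alone. The controls were close together, *daf-16(0)* replicates 1 and 2 were at or under the 3-count floor, and *daf-16(0)* replicate 3 was close to the controls. The fitted log2 fold change of -0.97 (SE 1.49, 95% interval -4.56 to 2.62, adjusted p = 0.668) in 4 libraries had the widest interval of the 10 genes in that fit, and that in 6 libraries was -1.74 (SE 1.67, adjusted p = 0.521).

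The fusogens showed no such order. *eff-1* (WBGene00001159, chromosome II 8346690-8350557, plus strand) encodes the membrane protein that fuses seam daughters with hyp7, and had 29.8, 31.8 and 40.6 CPM in the *daf-16(0)* libraries, against 37.1, 28.1 and 19.96 CPM in the control libraries. The genotypes overlapped, with *daf-16(0)* replicate 3 the highest and control replicate 3 the lowest. The log2 fold change was 0.15 (SE 0.33, 95% interval -0.65 to 0.95, adjusted p = 0.772) in 4 libraries and 0.24 (SE 0.34, 95% interval -0.54 to 1.03, adjusted p = 0.664) in 6, and a 4-fold change in either direction lay outside both intervals.

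*aff-1* (WBGene00016625, chromosome II 6860582-6863752, minus strand) encodes the fusogen that joins seam cells to each other at the end of larval life. It had 6.32, 3.40 and 7.08 CPM in the *daf-16(0)* libraries, against 10.18, 6.70 and 0.0512 CPM in the control libraries. The *daf-16(0)* libraries lay within the range of the controls, whose spread was set by control replicate 3 with 1 count. In the fits, *aff-1* had a log2 fold change of -0.68 (SE 0.69, 95% interval -2.36 to 0.99, adjusted p = 0.506) in 4 libraries and -0.026 (SE 1.28, adjusted p = 0.992) in 6.

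Control replicate 3, the deepest library, thus held 1 count of *aff-1* and 0 of *bro-1*. At the lowest level of any other library it would have held 66.3 counts of *aff-1* and 40.9 counts of *bro-1*. Such single-library losses were not limited to the seam genes: 139 of 9427 protein-coding genes with at least 2 CPM in each of the other 5 libraries (1.47%) had 3 counts or fewer in control replicate 3, a measure chosen after these values were seen. The same count was 155 genes (1.62%) for control replicate 2 and between 3 and 67 genes for the other 4 libraries. The cause was not tested.

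Within a library, *eff-1* exceeded *aff-1* per kilobase of exon everywhere. The *eff-1* to *aff-1* ratio of CPM per kb was 3.96, 7.85 and 4.81 in the *daf-16(0)* libraries, against 3.06, 3.53 and 327 in the control libraries. Apart from control replicate 3 the ratio was higher in *daf-16(0)*, and that library, with its single *aff-1* count, reversed the order.

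*apr-1* (WBGene00000156, chromosome I 8050043-8055489, plus strand) encodes the APC-related protein that works in the Wnt/beta-catenin asymmetry pathway of dividing seam cells, and it showed the lowest log2 fold change and adjusted p of the 10 genes in the 4-library fit. It had 45.7, 28.4 and 40.5 CPM in the *daf-16(0)* libraries, against 135, 145 and 55.6 CPM in the control libraries. The genotypes did not overlap, and control replicates 1 and 2 were close together while control replicate 3 was nearer to the *daf-16(0)* libraries. In the 4 libraries *apr-1* averaged 34.4 ± 8.57 CPM in *daf-16(0)* and 140 ± 6.79 CPM in control (SD, n = 2 each), which is a 4.06-fold lower mean, with a log2 fold change of -2.02 (SE 0.31, 95% interval -2.78 to -1.26, adjusted p = 0.0130). In all 6 libraries it averaged 38.2 ± 8.89 CPM in *daf-16(0)* and 112 ± 48.9 CPM in control (SD, n = 3 each), with a log2 fold change of -1.57 (SE 0.42, 95% interval -2.53 to -0.61, adjusted p = 0.0470).

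Among 11 alternatives, the *apr-1* call in 4 libraries was lost only without *daf-16(0)* replicate 2. That fit left 1 *daf-16(0)* library and gave a log2 fold change of -1.77. The call in all 6 libraries was lost more often. It was lost without any 1 of *daf-16(0)* replicates 1, 2 and 3 or control replicates 1 and 2 (adjusted p 0.0983 to 0.179). The log2 fold changes in those fits were -1.70 to -1.36. They called 170 to 447 of all tested genes lower, against 1008 with all 6 libraries. The *apr-1* call held without control replicate 3 (log2 fold change -1.88, adjusted p = 0.00792). *elt-1* also fell without control replicate 3 (log2 fold change -1.98, adjusted p = 0.0233), so that 2 of the 10 genes were lower in those 5 libraries, in a fit where 11.8% of all tested genes were.

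*pop-1* (WBGene00004077, chromosome I 2823254-2830311, minus strand) encodes the TCF factor whose unequal nuclear level distinguishes the daughters of a seam division. It had 20.7, 18.3 and 30.7 CPM in the *daf-16(0)* libraries, against 21.3, 31.3 and 12.1 CPM in the control libraries. The genotypes overlapped across nearly the whole range. Its log2 fold change was -0.11 (SE 0.42, 95% interval -1.12 to 0.90, adjusted p = 0.873) in 4 libraries and 0.090 (SE 0.44, 95% interval -0.93 to 1.11, adjusted p = 0.911) in 6. These values are of mRNA, whereas the asymmetry of POP-1 is one of protein between sister cells.

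**Figure D2:**
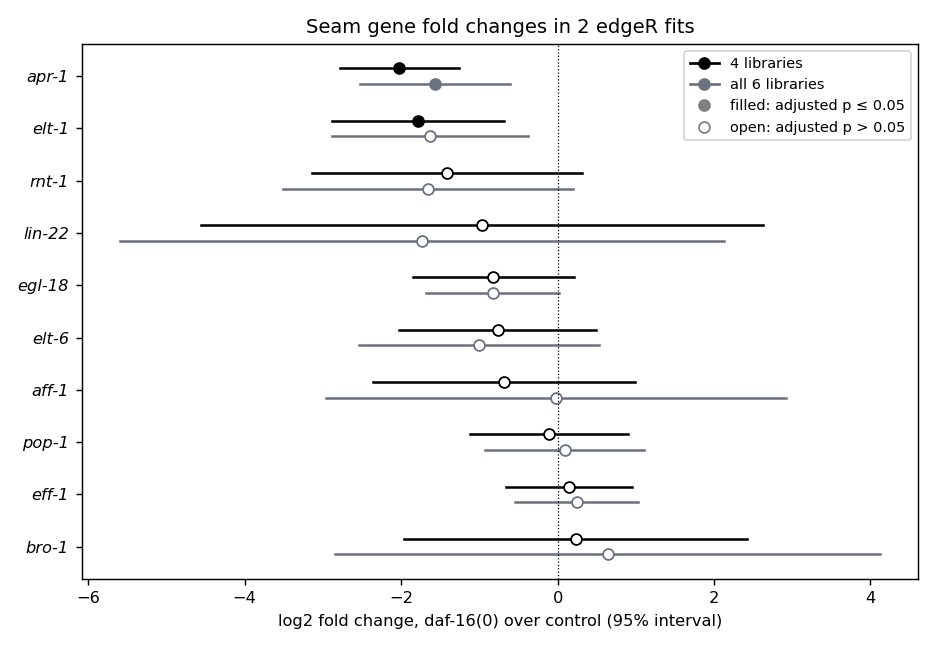
log2 fold change of *daf-16(0)* over control (x axis) with its 95% interval for each seam gene (y axis), from edgeR on 4 libraries (black) and on all 6 (grey); filled points passed an adjusted p of 0.05. *apr-1* was filled in both fits and *elt-1* in the 4-library fit, and the intervals of *lin-22* and *bro-1* were the widest in both.

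Neighbouring transcripts bear on *apr-1* and *eff-1*, because the library kit does not record strand. *apr-1* overlaps 31 bases of K04G2.9, a protein-coding gene on the opposite strand, which had 141, 200 and 325 counts in the *daf-16(0)* libraries against 308, 394 and 358 counts in the control libraries, or 20.3% to 77.2% of the *apr-1* count in *daf-16(0)* and 30.9% to 33.0% in control. *eff-1* overlaps 23 bases of C26D10.6, also on the opposite strand, which had 157 to 359 counts in the *daf-16(0)* libraries against 181 to 236 counts in the control libraries. Reads from the shared bases cannot be assigned to a strand.

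Per kilobase of exon, the order of the 10 genes differed between the genotypes at the top. In *daf-16(0)*, *eff-1* had the highest mean level (14.5 ± 2.43 CPM per kb, SD, n = 3), and its libraries did not overlap those of *apr-1*, next in order at 9.77 ± 2.28. *apr-1*, *pop-1* (9.08 ± 2.57) and *egl-18* (8.88 ± 2.65) overlapped each other there, and *egl-18* was clear of *elt-1* (4.76 ± 1.23). From *elt-1* down through *elt-6*, *bro-1*, *aff-1*, *rnt-1* and *lin-22* each gene overlapped the next.

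In control, *apr-1* had the highest mean level (28.6 ± 12.5 CPM per kb, SD, n = 3), followed by *egl-18* (15.6 ± 1.25), *elt-1* (14.6 ± 9.48) and *eff-1* (12.1 ± 3.64). Every gene overlapped the next one in that order, while genes further apart could be clear of each other: the lowest *egl-18* library (14.8 CPM per kb) was above the highest *pop-1* library (12.2 CPM per kb). *lin-22* was the lowest of the 10 in both genotypes, at 0.468 ± 0.753 CPM per kb in *daf-16(0)* and 1.55 ± 0.276 in control.

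The genes whose profile was most like that of *apr-1* were *swt-3*, *ldb-1* and R03G5.6, with Pearson r of 0.998, 0.997 and 0.996 between log2 CPM over the 6 libraries. These were the highest of 8800 protein-coding genes with a mean of at least 10 CPM, of which 200 reached 0.95, so a profile of this shape was shared by many genes. R03G5.6 had 5.66, 3.61 and 4.85 CPM in the *daf-16(0)* libraries, against 23.6, 26.3 and 7.27 CPM in the control libraries. All points share the same 6 libraries and their depth.

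Beyond *pop-1* and *apr-1*, 26 other genes of Wnt signalling, not only of its asymmetry branch, were tested: ligands, their secretion factors, receptors, Dishevelled proteins, the destruction complex, kinases and beta-catenins. In 4 libraries 2 of them fell (7.69%) and 0 rose, with a median log2 fold change of -0.14, beside 9.59% and 5.37% of all tested genes, so the share that fell was below that of all genes. At an unadjusted p of 0.05 edgeR gave 6 lower and 0 higher in 4 libraries. DESeq2 and limma each called 3 lower and 0 higher at the adjusted threshold. The share of all genes at an unadjusted p of 0.05 was not counted, so such counts, here and for the other lists, have no background beside them. In all 6 libraries edgeR called 0 lower and 0 higher (4 and 0 at an unadjusted p of 0.05), while DESeq2 called 2 lower. Over all genes, the shares called lower were 12.1% by DESeq2 and 13.2% by limma in 4 libraries and 10.7% by DESeq2 in 6.

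The 2 Wnt genes that edgeR called were a ligand and a receptor. *egl-20*, a Wnt ligand made in the tail, had 43.9, 37.1 and 61.4 CPM in the *daf-16(0)* libraries, against 122, 153 and 56.4 CPM in the control libraries, a log2 fold change of -1.48 in 4 libraries (SE 0.35, adjusted p = 0.0403). *cfz-2*, a Frizzled receptor, had 1.78, 2.85 and 4.62 CPM in the *daf-16(0)* libraries, against 16.6, 28.1 and 3.38 CPM in the control libraries, a log2 fold change of -2.58 (SE 0.56, adjusted p = 0.0319). For both, control replicate 3 lay within the range of the *daf-16(0)* libraries, and neither passed the threshold in all 6 libraries (adjusted p = 0.0882 for *egl-20* and 0.0951 for *cfz-2*). From the 4 libraries, 0 Wnt genes were called lower when *daf-16(0)* replicate 2, *daf-16(0)* replicate 3 or control replicate 2 was left out, where 3.05%, 4.73% and 7.09% of all genes were, and 3 when control replicate 1 was, beside 11.2% of all genes. In all 6, 3 were called lower without control replicate 3, again close to the share of all genes (11.8%).

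Of 18 other epidermal fate regulators, 15 were tested, and in 4 libraries 2 fell and 0 rose (4 and 1 at an unadjusted p of 0.05), with a median log2 fold change of -0.47. The 2 that fell were 13.3% of those tested, beside 9.59% of all genes, and 5.37% of all genes rose. *grh-1*, a Grainyhead factor of epidermal barrier formation, had 22.6, 37.5 and 35.6 CPM in the *daf-16(0)* libraries, against 147, 143 and 29.7 CPM in the control libraries, a log2 fold change of -1.99 (SE 0.28, adjusted p = 0.0106). *egl-27*, an MTA-related chromatin protein, had 101, 77.9 and 105 CPM in the *daf-16(0)* libraries, against 207, 214 and 140 CPM in the control libraries, a log2 fold change of -1.21 (SE 0.30, adjusted p = 0.0451). From the 4 libraries, 0 of the 15 were called lower without *daf-16(0)* replicate 2 or 3, 1 without control replicate 2 and 3 without control replicate 1, in fits where the shares of all genes were those given for the Wnt genes.

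As for *apr-1*, control replicate 3 was the control nearest to *daf-16(0)*, and for *grh-1* it lay within the *daf-16(0)* range. In all 6 libraries 0 of the 15 fell (5 at an unadjusted p of 0.05, 4 by DESeq2, and 4 by edgeR without control replicate 3, where 11.8% of all genes fell) and 1 rose, the nuclear receptor *nhr-23*, a regulator of molting, with a log2 fold change of 1.42 (SE 0.37, adjusted p = 0.0446). The *nhr-23* call was lost without any 1 of the *daf-16(0)* replicates or control replicate 2, DESeq2 called it in 4 libraries too, and limma called 0 higher there. *nhr-23* was named after its values were seen.

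**Figure D3:**
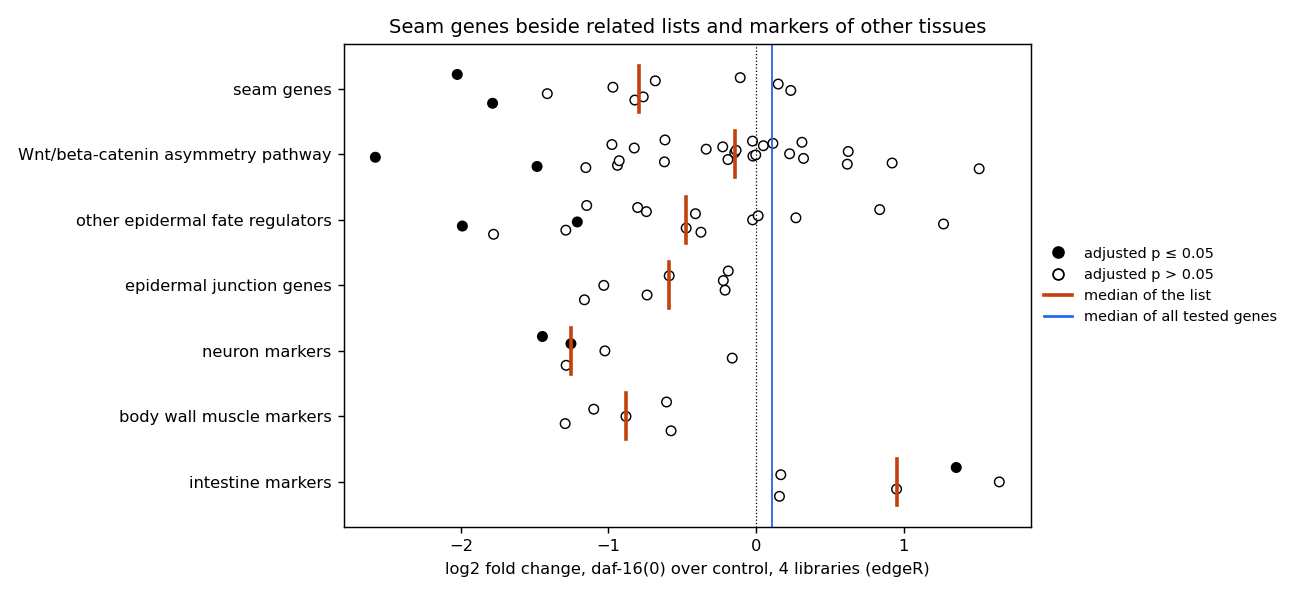
log2 fold change of *daf-16(0)* over control in 4 libraries (x axis) for each tested gene of the seam genes, of related lists and of markers of other tissues (y axis); filled points passed an adjusted p of 0.05, thick bars mark list medians and the thin line marks the median of all tested genes. The seam gene median of -0.79 lay between that of the epidermal junction genes, -0.59, and that of the body wall muscle markers, -0.88.

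Seam cells are a small part of a whole larva, several of these genes are also used in other tissues, and in whole animals fewer cells of a type cannot be told apart from less RNA per cell. Seam-enriched markers gave no uniform picture: *nhr-73* was at 0 in all 6 libraries, *nhr-74* had at most 9 counts, and the list summed to 109 to 163 CPM in the *daf-16(0)* libraries, against 113 to 285 CPM in the control libraries. The homeobox gene *ceh-16*, a seam regulator of the engrailed family, had 0.198, 2.19 and 1.54 CPM in the *daf-16(0)* libraries, against 3.35, 9.42 and 21.3 CPM in the control libraries, all of them lower in *daf-16(0)* without passing the threshold (log2 fold change -1.78, adjusted p = 0.215, in 4 libraries, and -3.14, adjusted p = 0.0904, in 6). DESeq2 called *ceh-16* lower in 6 libraries. The hedgehog-related gene *grd-10* had 16.5, 65.4 and 80.8 CPM in the *daf-16(0)* libraries, against 104, 58.2 and 233 CPM in the control libraries, overlapping between genotypes and making up most of the list's sum in control replicate 3. Another hedgehog-related gene, *wrt-2*, ran the other way, with 92.2, 95.3 and 74.4 CPM in the *daf-16(0)* libraries, against 28.3, 45.7 and 31.01 CPM in the control libraries (log2 fold change 1.19, adjusted p = 0.0710, in 4 libraries, and adjusted p = 0.0325 in all 6). DESeq2 called *wrt-2* higher in both sets of libraries, and limma called it higher in 4. *nhr-73*, *nhr-74*, *ceh-16*, *grd-10* and *wrt-2* were named after their values were seen.

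Marker lists of the epidermis and of other tissues differed in how they compared between genotypes. The 7 epidermal junction genes had a median log2 fold change of -0.59 in 4 libraries, and edgeR called 0 of them (3 lower and 0 higher at an unadjusted p of 0.05, and 1 lower by DESeq2 and by limma). They summed to 659 to 934 CPM in *daf-16(0)*, against 780 to 1545 CPM in control, and the genotypes overlapped. Of the 5 neuron markers 2 fell in 4 libraries, *ric-4* (log2 fold change -1.25, adjusted p = 0.0438) and *egl-3* (log2 fold change -1.45, adjusted p = 0.0343), where 9.59% of all genes fell. In all 6 libraries edgeR called 3 lower, where 7.39% of all genes fell. DESeq2 called 4 lower in both sets of libraries, and limma called 3 in 4. The list summed to 416 to 602 CPM in *daf-16(0)*, against 938 to 1397 CPM in control. Of the 5 body wall muscle markers edgeR called 0 in either fit (1 lower at an unadjusted p of 0.05 in each), DESeq2 called 3 lower in 4 libraries and 1 in 6, and limma called 0 in 4. Their sums overlapped, 6432 to 14812 CPM in *daf-16(0)*, against 10206 to 27869 CPM in control.

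Other lists ran the other way, in fits where edgeR called 5.37% of all genes higher in 4 libraries and 5.08% in all 6. Of the 5 intestine markers 1 rose in 4 libraries, the microvillar actin gene *act-5* (log2 fold change 1.36, adjusted p = 0.0439), and edgeR called 0 in all 6 (2 higher at an unadjusted p of 0.05, and 2 by DESeq2). The list summed to 1944 to 2782 CPM in *daf-16(0)*, against 990 to 1464 CPM in control. Of the 5 germline markers 1 rose in 4 libraries, the meiotic axis gene *htp-3* (log2 fold change 1.99, adjusted p = 0.0434). At an unadjusted p of 0.05 edgeR gave 4 higher there, and DESeq2 and limma each called 3. In all 6 libraries edgeR called 1 higher, a gene other than *htp-3*, and DESeq2 called 2. The germline list summed to 288 to 597 CPM in *daf-16(0)*, against 66.95 to 275 CPM in control.

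Yolk and sperm genes differed most. All 6 yolk genes rose in 4 libraries, *vit-4*, *vit-6*, *vit-2* and *vit-1* with the largest log2 fold changes (6.91, 6.72, 6.57 and 6.56). In all 6 libraries edgeR called 0 of them (3 higher at an unadjusted p of 0.05, and 1 by DESeq2). In control replicate 3, *vit-2* and *vit-6* had 6490 and 5994 CPM, within the *daf-16(0)* range. *vit-4* and *vit-1* had 443 and 298 CPM there, below every *daf-16(0)* library and above the other controls. For 3 of the 6 genes every *daf-16(0)* library lay above every control library, an order that 21.8% of all tested genes showed. The sperm genes *msp-10*, *msp-31* and *msp-142* rose in both fits, and each had 0 counts in control replicates 1 and 2 and at most 1 count in control replicate 3. The sperm list summed to 20.1 to 76.8 CPM in *daf-16(0)*, against 1.13 to 2.37 CPM in control. Yolk and *msp* genes have near-identical copies, so values of single genes are uncertain. The part of tissue proportions in the seam gene values was not tested.

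**Figure D4:**
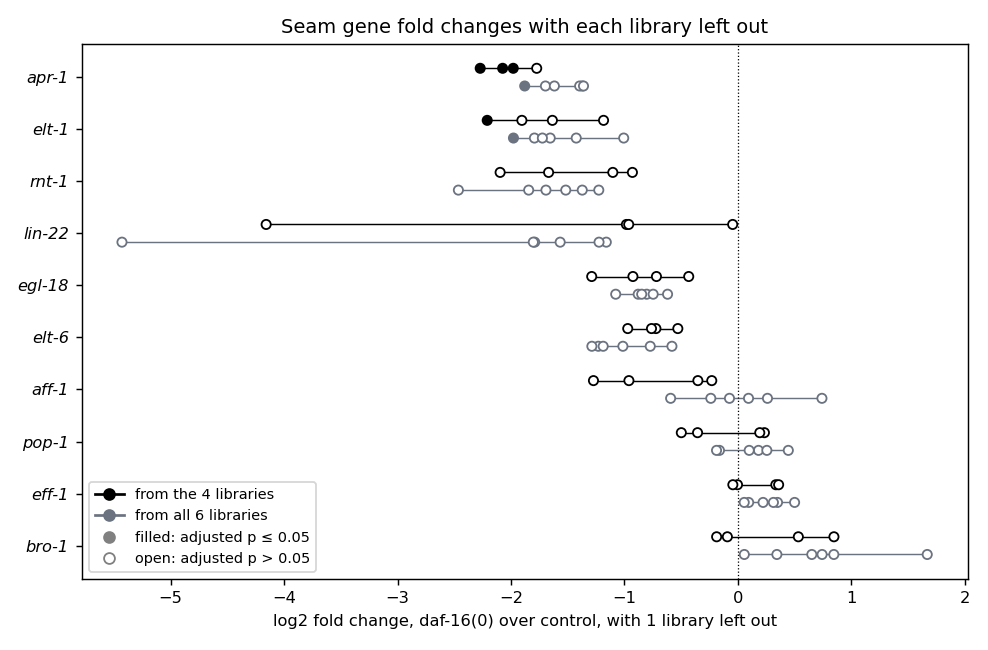
log2 fold change of *daf-16(0)* over control (x axis) for each seam gene (y axis) with each library left out in turn, from the 4 libraries (black, 4 points) and from all 6 (grey, 6 points); filled points passed an adjusted p of 0.05. *apr-1*, *elt-1*, *rnt-1*, *lin-22*, *egl-18* and *elt-6* stayed below 0 in every point, the points of *pop-1*, *eff-1*, *bro-1* and *aff-1* lay on both sides of 0 in at least 1 of the fits, and the far left points of *lin-22* come from fits without *daf-16(0)* replicate 3, whose size depends on the small count added to near-zero values.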

How the data were processed

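Per the study's methods, adapters and low-quality bases were removed (Trimmomatic), reads were mapped to WBcel235 (STAR) and genes quantified (RSEM). The authors deposited the resulting expected counts, without normalization, for 46904 genes in 6 libraries. They also deposited a normalized signal table of 4 libraries, found to be those counts divided by 1 size factor per library and not used further, and a DESeq2 table of fold changes and p-values, which was not used. The study's methods describe a search for outlier libraries, without naming any.

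Expected counts of 20191 protein-coding genes were rounded to whole numbers (1.57% to 2.78% of values per library were not whole) and fitted with edgeR 4.0.16 in R 4.3.3 (TMM, its default filter on low counts, quasi-likelihood test, Benjamini-Hochberg adjustment, threshold 0.05). Ribosomal RNA held 0.0599% to 8.64% of counts. Exon lengths are unions of exons in Ensembl release 115, and coordinates are those of the deposited table. Intervals and floors cover counting error or the spread between libraries only. As a test, 200 genes in simulated data were shifted by 3 log2 units. In 4 libraries edgeR recovered 75% of them, DESeq2 81.5% and limma 78%, and 4.46%, 12.8% and 6.02% of their calls were false. In 6 libraries edgeR recovered 48% and DESeq2 78.5%, and 2.04% and 16.5% of their calls were false. False calls thus exceeded the threshold of 0.05 with DESeq2 in both sets and slightly with limma. edgeR in 6 libraries missed many true changes. Genes of low level were not among those shifted, and all genes were given the same simulated spread. The shift was larger than the fold change of any seam gene in either edgeR fit. Recovery of smaller changes was not measured, so a gene not called in either set may still differ. DESeq2 1.42.0 and limma 3.58.1, on log2(CPM + 1), were alternatives, with RLE scaling, other filters, all biotypes, a replicate block and each library left out.

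The members and lists were chosen with earlier results of these data known. From each other list, genes passing the threshold in 4 libraries were named, at most 4 by absolute fold change. For the member with the smallest p, the 3 genes of highest Pearson r were named. Genes named outside this rule are marked.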

Additional observations from a re-analysis of the deposited data

How the results depend on the processing

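Calls over all genes depended on the test: 2025 genes passed in 4 libraries with edgeR, 3729 with DESeq2, 3154 with limma and 3600 with no filter on low counts, and in 6 libraries 1701 passed with edgeR, 3522 with DESeq2 and 384 with the replicate block. Replicate numbers are shared between genotypes, but same-numbered libraries did not deviate together (correlations -0.12, -0.0058 and -0.31), so the block was not used as the main fit. With the block on 6 libraries, 0 seam genes were called lower and 0 epidermal regulators higher, where 222 of all 13633 genes were lower and 162 higher. The log2 fold change of *aff-1* turned to 0.66 there. Of all genes in the 4 libraries, 1259 of 13901 were lower with all biotypes. With no filter 1974 of 17287 were lower and 1626 higher. With each of the 6 libraries left out, 170 to 1675 of all genes were lower and 125 to 1267 higher. From the 4 libraries, 2 seam genes were lower: the count was 1 with all biotypes, 1 with all 6 libraries and 0 to 2 with each library left out. In all 6 it was 1, with 2 by DESeq2 and 0 to 2 with each library left out. Wnt genes called lower from the 4 libraries numbered 0 with all 6 and 0 to 3 with each left out, and in all 6 numbered 2 by DESeq2 and 0 to 3 with each left out. Epidermal regulators called lower from the 4 numbered 4 with no filter, 0 with all 6 and 0 to 3 with each left out, and in all 6 numbered 4 by DESeq2 and 0 to 4 with each left out. Those called higher from the 4 numbered 1 by DESeq2, 1 with no filter, 1 with all 6 and 0 to 1 with each left out, and in all 6, 0 to 1 with each left out. The 4 genes near 0 changed sign with a library left out: *aff-1* in 6 libraries (-0.59 to 0.74), *pop-1* in 4 (-0.50 to 0.23, and 0.090 with all 6) and in 6 (-0.19 to 0.44), *bro-1* in 4 (-0.19 to 0.85) and *eff-1* in 4 (-0.045 to 0.36). The cause was not tested. Low counts limit *lin-22*, *bro-1*, *rnt-1* and *aff-1* most.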
